A study of Mus musculus with 9 samples.

Results

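Distal peaks of histone H3 lysine 27 acetylation (H3K27ac) that were called in both Hedgehog pathway mutants and not in wild type are described here for the mouse forelimb bud. Each member is a peak of the Shh-/- list that overlapped a Shh-/-;Gli3-/- peak by at least 1 bp, overlapped no WT peak, and was not a promoter peak, that is, did not reach into the 2 kb before or the 1 kb after any protein-coding transcript start. Of 32085 Shh-/- peaks, 16487 were distal by this rule, and 3403 of these were members, which is 20.6% of the distal peaks (95% Wilson interval 20.03 to 21.3%). The members were chosen by measured values, namely the presence or absence of a peak in each list. Their number and this pattern are therefore descriptions and were not tested.

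The chromatin was immunoprecipitated by MicroChIP-seq, a protocol for small cell numbers, from E10.5 forelimbs staged at 33 to 34 somites. The limb bud pair of 1 embryo went into each immunoprecipitation. The labels give a mixed strain background, whereas the study's methods describe both mutant alleles as kept on Swiss Webster mice. The WT group carries functional Shh and Gli3. The Shh-/- group lacks Sonic hedgehog (SHH), the posterior signal of the limb bud, through the Shh tm1amc null allele, and the Shh-/-;Gli3-/- group lacks in addition the transcription factor GLI3, through the Gli3 Xt-J allele. Both alleles are germline nulls, so they act in all tissues of the embryo and from the start of limb growth. Each group had 2 H3K27ac libraries and 1 input library, 9 libraries in all, but a single peak list. Since values per replicate are not part of the lists, the spread between embryos is unknown for every difference below, and intervals cover counting error over peaks only.

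H3K27ac marks active promoters and enhancers, and a distal peak of it is commonly read as a candidate enhancer. In the limb bud, SHH from the posterior margin prevents the processing of GLI proteins into repressors. Without SHH, GLI3 repressor acts throughout the bud, and genes that are normally restricted to the anterior or proximal bud can be found posteriorly. When GLI3 is also removed, neither SHH signalling nor GLI3 repression remains. Peaks found in both mutants are thus those called without SHH whether GLI3 was present or not. Because a list ends at its threshold, a missing WT peak means that none was called, not that acetylation was absent.

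The sequences of 4 members are shown first, since the regions are the subject of the comparison. They are the members ranked highest in both mutant lists near the anterior limb genes Zic2 and Gli3, the member ranked highest of all, near Chd2, and the highest-ranked member with no WT peak within 5 kb, near Ccdc60. They were read from the plus strand of GRCm38, the assembly of mm10, and are whole peaks or 300 bases around the position of the largest statistic. Capitals mark matches, on either strand, to the homeodomain core TAATTA, the bHLH E-box CAGATG and the HOX13-like string CAATAAA. The windows are chr14:122462601-122462800 for Zic2, chr13:15550526-15550825 for Gli3, chr7:73595951-73596250 for Chd2 and chr5:116311926-116312225 for Ccdc60.
Zic2: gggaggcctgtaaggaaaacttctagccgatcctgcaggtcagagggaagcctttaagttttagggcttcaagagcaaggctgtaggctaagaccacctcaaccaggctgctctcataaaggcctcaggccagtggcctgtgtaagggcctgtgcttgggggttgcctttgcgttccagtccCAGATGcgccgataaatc
Gli3: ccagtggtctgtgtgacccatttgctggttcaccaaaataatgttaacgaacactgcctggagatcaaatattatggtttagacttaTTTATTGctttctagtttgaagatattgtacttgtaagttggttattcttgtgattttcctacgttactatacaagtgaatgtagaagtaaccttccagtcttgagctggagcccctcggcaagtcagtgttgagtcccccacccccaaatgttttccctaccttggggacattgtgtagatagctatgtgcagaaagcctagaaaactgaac
Chd2: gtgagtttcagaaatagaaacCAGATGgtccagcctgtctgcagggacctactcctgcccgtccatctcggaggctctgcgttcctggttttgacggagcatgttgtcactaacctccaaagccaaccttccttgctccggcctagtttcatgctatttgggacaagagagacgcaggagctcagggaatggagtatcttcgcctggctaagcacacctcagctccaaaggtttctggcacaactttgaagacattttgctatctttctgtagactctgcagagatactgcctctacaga
Ccdc60: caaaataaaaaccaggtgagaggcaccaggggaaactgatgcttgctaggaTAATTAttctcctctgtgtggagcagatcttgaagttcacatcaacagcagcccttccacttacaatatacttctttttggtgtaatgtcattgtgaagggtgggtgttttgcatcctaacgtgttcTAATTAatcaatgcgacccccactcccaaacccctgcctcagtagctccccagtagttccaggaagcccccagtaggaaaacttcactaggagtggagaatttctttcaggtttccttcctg

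The Zic2 sequence and that near Chd2 each hold the E-box, which TWIST1 and other mesenchymal bHLH factors can bind, and the Ccdc60 sequence holds the homeodomain core at positions 52 and 179 of the printed stretch. None of the 4 printed stretches holds the 9-letter GLI string GACCACCCA on either strand. Their GC content was 55% for Zic2, 41.3% for Gli3, 50.7% for Chd2 and 45.7% for Ccdc60. A match of letters is a description and not a shown binding site.

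The lists matched their label as forelimb. Peaks over the promoters of Tbx5, the forelimb identity gene, and of the limb mesenchyme genes Prrx1, Prrx2, Lhx2, Lhx9 and Twist1 were present in all 3 lists, whereas the hindlimb genes Tbx4 and Pitx1 had none in any list. The lists held 25096 WT, 32085 Shh-/- and 34641 Shh-/-;Gli3-/- peaks, of which 60.8%, 72.4% and 83.4% had a false discovery rate (FDR) below 0.05. A longer mutant list finds more shared peaks by size alone. Of 20 endothelium and blood genes, 3 had a promoter peak in WT and 5 in each mutant, of 10 muscle precursor genes 1, 1 and 4 in WT, Shh-/- and Shh-/-;Gli3-/-, and of 15 neural genes 3 in every list.

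Most distal Shh-/- peaks without a WT peak were not found in the double mutant either, and the stronger ones were found there more often. Among the 12122 distal Shh-/- peaks without a WT peak, 28.1% (27.3 to 28.9%) were found in the Shh-/-;Gli3-/- list. Among the 4365 that did overlap a WT peak, 87.5% (86.5 to 88.5%) were. The share of peaks without WT overlap that were found in the double mutant ranged from 20.2% to 25.1% in deciles 1 to 5 of the Shh-/- fold, and was 42.9% in decile 9 and 62.2% in decile 10 (log2 fold 3.46 to 6.06). In decile 10, only 405 of 1649 distal peaks had no WT overlap, and 252 of these were members. Near promoters, 11.8% of Shh-/- peaks (1843 of 15598) had the same pattern of both mutants and no WT.

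Counted as merged regions, so that no list sets the pieces, the 3 lists formed 33524 distal regions. Of these, 2478 (7.39%, 7.12 to 7.68%) held peaks of both mutants and none of WT. By comparison, 1372 held peaks of WT and Shh-/-;Gli3-/- only, and 451 held peaks of WT and Shh-/- only. The pairing of both mutants was therefore the most frequent of the 3 pairings. It was less frequent than regions found in all lists (3295) and than those of a single list, with 4626 for WT, 8239 for Shh-/- and 13063 for Shh-/-;Gli3-/-. The list with the fewest peaks is the one absent from this pairing.

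In the Shh-/- list the median log2 fold over input of the members was 2.71 (95% interval 2.70 to 2.73), between 3.13 for distal peaks common to the 3 genotypes and 2.58 for peaks called in Shh-/- alone. The 545 distal peaks of WT and Shh-/- had a similar median of 2.67 (2.63 to 2.72). The members' folds ran from 2.21 to 5.16, and their median stood at percentile 38.8 of all Shh-/- peaks. An FDR below 0.05 was reached by 64.9% of members in the Shh-/- list and by 89.8% in the Shh-/-;Gli3-/- list, and by 57.9% in both. Spearman's rho between the fold of a member and that of its Shh-/-;Gli3-/- peak was 0.004 over 3403 members. Over the 3820 common peaks it was 0.26. The double mutant fold is the largest of the whole peak and can lie outside the member, so rho does not measure agreement at the member. Fold quartiles in Shh-/- also differed (2.48 and 3.02 for members, 2.72 and 3.61 for common peaks), so these values of rho are not directly comparable. Members that shared a double mutant peak share one of the values, since the 3403 members overlapped 3258 distinct peaks.

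Members were narrow, with a median width of 200 bp (quartiles 150 and 300 bp). Common peaks had a median of 400 bp and Shh-/- only peaks 150 bp, while peaks of WT and Shh-/- had the same median as members, 200 bp. The overlapping Shh-/-;Gli3-/- peak was wider than the member in 70.4% of cases (2396 of 3403), narrower in 21.7% and of equal width in 7.88%, and its median width was 400 bp. The 5 widest members measured 1100 to 1550 bp. The widest, chr8:126665950-126667499, is intergenic, 72.0 kb from the start of Irf2bp2, and had a log2 fold of 3.91 in Shh-/- and 2.70 in Shh-/-;Gli3-/-, each over its own input, with a gap of 70.8 kb to the nearest WT peak. The others lay in introns of Smyd3, Dysf (the dysferlin gene) and Dync1i1 and 134 kb from Tcf7l2, which encodes a transcription factor of the Wnt pathway.

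**Figure D1:**
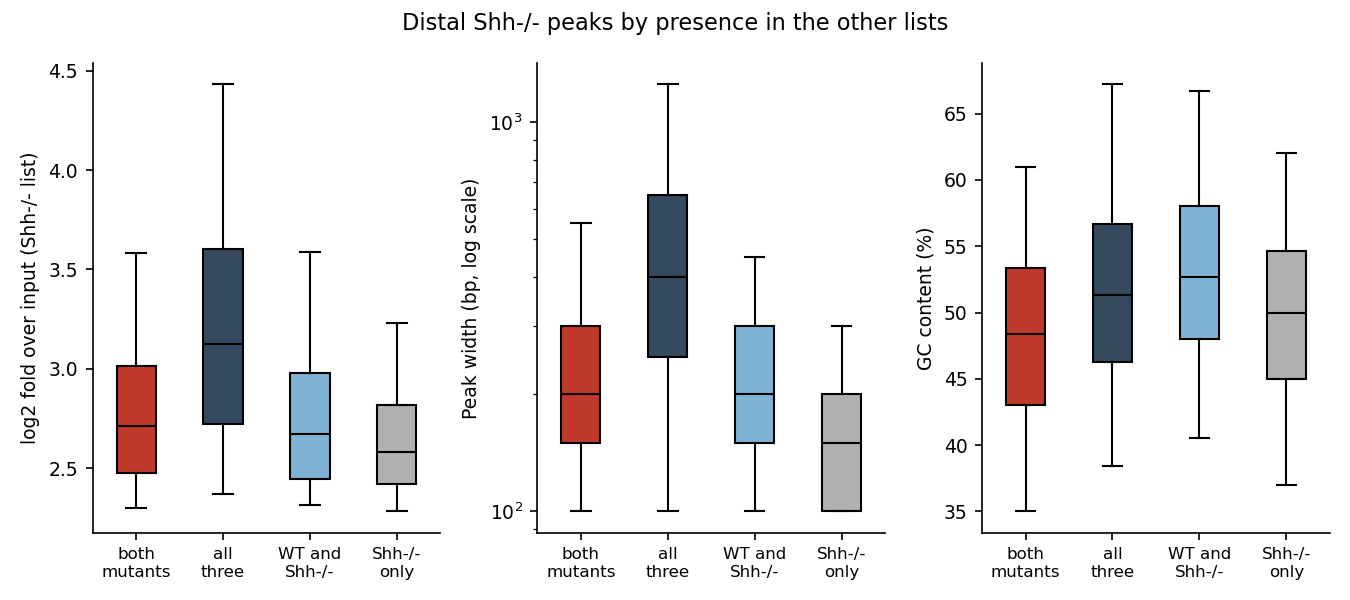
Box plots of log2 fold over input, peak width (bp, log scale) and GC content (%) of distal Shh-/- peaks by the lists in which they were found. Lines are medians, boxes quartiles and whiskers the 5th to 95th percentiles; members (both mutants) had medians of 2.71, 200 bp and 48.4%, and common peaks of 3.13, 400 bp and 51.3%.

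The largest part of the members lay beside WT acetylation. The median gap from a member to the nearest WT peak was 0.75 kb (0.70 to 0.85 kb), against 15.2 kb (14.3 to 16.1 kb) for peaks called in Shh-/- alone. Of the members, 26.0% (884) lay within 0.2 kb of a WT peak, 54.7% (53.0 to 56.4%) within 1 kb and 65.8% within 5 kb. The shares of Shh-/- only peaks were 6.56%, 20.1% and 34.5%. The absence of an overlapping WT peak was used to choose both groups, which differ by rule in the overlap with a Shh-/-;Gli3-/- peak. That overlap was more frequent for distal Shh-/- peaks with a WT peak (87.5%) than without (28.1%). The difference in gap is therefore not independent of the rule, and its source was not tested.

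Many of these neighbours belonged to one wider region in the double mutant. For 875 members (25.7%), the Shh-/-;Gli3-/- peak with the highest fold over the member itself overlapped a WT peak. This held for 69.8% of members within 0.2 kb of a WT peak, 34.2% of those from 0.2 to 0.5 kb, 12.6% from 0.5 to 1 kb and 3.99% from 1 to 5 kb, and for none of the 1165 beyond. A double mutant peak must span the gap to overlap both the member and the WT peak. The decrease with the gap is therefore set in part by peak width and is a description only. The median width of the double mutant peak decreased over the same steps, from 600 bp to 525, 425 and 350 bp, and was 250 bp from 5 to 100 kb and 300 bp beyond, while the members' own median width stayed at 200 bp. At the edge of the rule, 260 members touched a WT peak without sharing a base, and 293 common peaks shared only 50 bp, the step of the lists, with WT. Their median folds were both 2.67. The 5 strongest touching members lay nearest to Gmpr, Twist1, Synpo, Tgoln1 and Nfe2l3 (log2 fold 3.82 to 4.98), and the 5 strongest peaks that shared 50 bp lay nearest to Kifap3, Tshz2, Syt17, Abhd16b and Kcna6 (3.83 to 4.27).

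**Figure D2:**
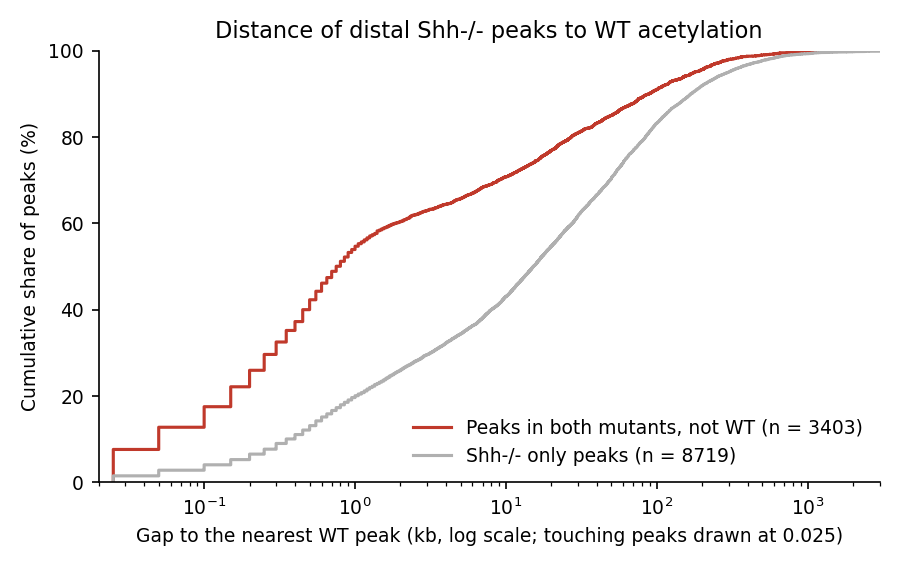
Cumulative share (%) of distal Shh-/- peaks against the gap to the nearest WT peak (kb, log scale) for members and for peaks called in Shh-/- alone. The curve of the members reaches 54.7% at 1 kb, where that of the Shh-/- only peaks is at 20.1%, and the curves approach each other beyond 100 kb (91.0% and 83.2%).

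A separate set of 1165 members (34.2%, 32.7 to 35.8%) lay more than 5 kb from any WT peak, and 306 (8.99%) lay more than 100 kb away. Those 1165 members had a median log2 fold of 2.74 in Shh-/- (2.72 to 2.78), against 2.71 for members within 1 kb of WT, and were further from genes, with a median distance of 62.4 kb (56.9 to 68.0 kb) to the nearest protein-coding start, against 44.0 kb for the latter. They were also more often intergenic, at 54.1% against 45.8%. The gap counts WT peaks at promoters, so the split itself sets aside members close to a promoter acetylated in WT. These differences in distance and intergenic share are therefore not independent of the split, and their source was not tested.

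The 10 members with the highest rank in both mutant lists illustrate both situations. For each, the lower of its percentile ranks by fold was at least 81.0. The first lay 54.2 kb from the start of Chd2, a chromatin remodeller, at chr7:73595950-73596249, with a log2 fold of 4.09 in Shh-/- and 4.19 in Shh-/-;Gli3-/-, and a WT peak began 0.35 kb away. The next lay on the X chromosome 16.3 kb from Gpc3, a glypican that modulates Hedgehog and other growth signals in the limb (4.10 and 4.01), and 0.45 kb from a WT peak. Others included those nearest to Olfr514, Atp6v1g3, Nfe2l3, Gmpr, Pard3b and Amotl2, all within 0.3 kb of a WT peak, and for 8 of the 10 the double mutant peak itself reached a WT peak. The exception by distance was an intergenic member at chr5:116311950-116312549, 23.0 kb from Ccdc60. It had a log2 fold of 4.32 in Shh-/- (percentile 90.8) and 3.76 in Shh-/-;Gli3-/- (percentile 82.4), and the nearest WT peak was 108.1 kb away.

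Further strong members far from WT peaks were intergenic near Cypt2 on the X chromosome (3.77 and 3.65, 311 kb from a WT peak) and intronic in Plxdc2 (4.60 and 3.65, 232 kb).

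Anterior limb genes were examined next, since SHH normally confines their expression to the anterior bud. Of 12 listed genes, 7 had a member within 100 kb of a transcript start, and 21 members lay near them. Across all protein-coding genes, 17.6% (3850 of 21827) had at least 1 member within that distance, but genes on the list were not matched for peaks around them. Of the 87 distal Shh-/- peaks within 100 kb of these genes, the 21 members made up 24.1% (16.4 to 34.1%), an interval that includes the 20.6% of all distal Shh-/- peaks. By locus the shares were uneven. For example, members were 8 of 12 distal peaks at Zic2, 7 of 15 at Gli3, 2 of 31 at Alx4, 1 of 8 at Asb4 and 1 of 2 at Hand1. Irx3, Irx5 and Pax1 had distal Shh-/- peaks but no member, and Alx1 and Pax9 had no distal Shh-/- peak within 100 kb.

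Zic2 encodes a zinc finger transcription factor whose fingers resemble those of the GLI proteins. Around Zic2 (chr14:122475435-122479852), which lies beside its relative Zic5, a promoter peak was present in every list (log2 fold 4.68 in WT, 4.49 in Shh-/- and 4.58 in Shh-/-;Gli3-/-). A single distal WT peak lay within 100 kb, against 12 in Shh-/- and 8 in Shh-/-;Gli3-/-. The strongest of the 8 members, chr14:122462600-122462799 (log2 fold 3.37), lay in an intron of Zic5 2.88 kb from its start, and a single double mutant peak of 2850 bp (4.70) covered it, a second member and the Zic5 promoter, which was also acetylated in WT. Further upstream, members at 62.0, 61.6 and 99.6 kb from Zic2 had folds of 3.04, 2.79 and 2.77, and gaps of 37.0, 36.5 and 74.5 kb to the nearest WT peak. Zic2 is also expressed in neural tissue. The neural and neural crest list had 3 members among 24 nearby distal Shh-/- peaks (12.5%, 4.34 to 31%), and 3 of its genes had a promoter peak in each peak list. Whether neural cells contributed to the peaks at Zic2 was not tested.

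At Gli3 (chr13:15463235-15730026), itself expressed in the anterior bud and the gene lost in the double mutant, the 7 members within 100 kb were all intronic and lay 79.3 to 95.9 kb downstream of the start. Their log2 folds ranged from 2.25 to 3.26 in Shh-/-. An FDR below 0.05 in Shh-/- was reached only by those with folds of 3.26 and 2.95 (0.00027 and 0.00373). The FDR of the others ran from 0.083 to 0.180. Each of the 7 lay within 1.9 kb of a WT peak, and for 4 of them the double mutant peak also reached WT. These members thus lay close to WT peaks, which by the rule they did not overlap. Counted by nearest gene, 11 members belonged to Gli3, among 26 distal Shh-/- peaks. At Alx4, a homeodomain gene of the anterior margin, 31 distal Shh-/- peaks lay within 100 kb but only 6 in Shh-/-;Gli3-/- and 3 in WT, and the 2 members upstream had folds of 2.80 and 2.68.

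**Figure D3:**
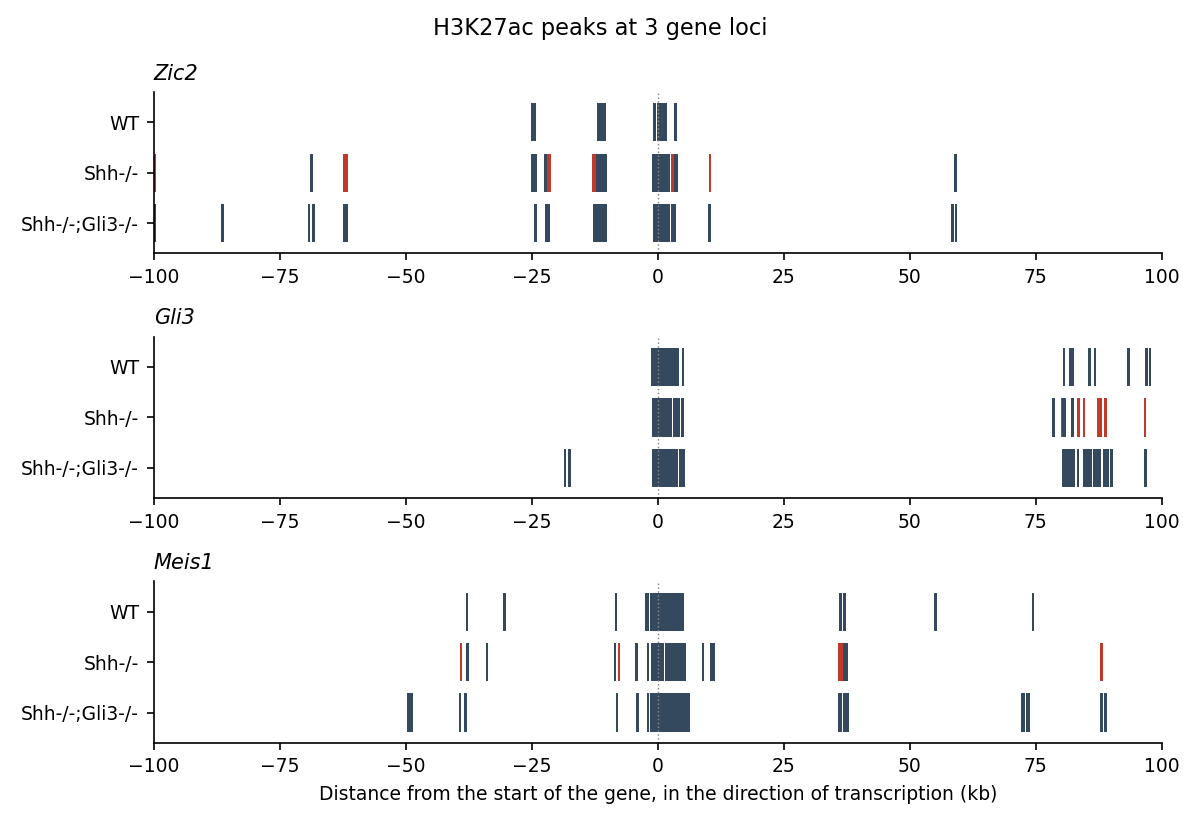
H3K27ac peaks of the 3 lists by distance (kb) from the outermost annotated start of Zic2, Gli3 and Meis1, in the direction of transcription. Each mark is a peak, drawn at least 0.5 kb wide; red marks in the Shh-/- row are members and dark marks all other peaks. Zic2 has members away from WT marks, the members at Gli3 lie among WT marks, and of the 5 members at Meis1 all but 1 lie beside them.

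Within 100 kb of 26 Hedgehog pathway and posterior limb genes, 17 of 119 distal Shh-/- peaks were members (14.3%, 9.11 to 21.7%), an interval that includes the share among all distal peaks, and 12 genes had at least 1. Of the Hedgehog co-receptor genes, Boc had 4 members among 11 distal Shh-/- peaks, Gas1 had 3 among 20 and Cdon had 0 among 32. The strongest by fold in Shh-/- were chr13:60134300-60134549 at Gas1 (log2 fold 3.45 in Shh-/- and 2.07 in Shh-/-;Gli3-/-) and chr16:44616750-44617149, 57.9 kb from Boc (3.42 and 3.13). The double mutant peak over the Gas1 member was weak, 100 bp wide with an FDR of 0.088. The same 3 members, with folds of 2.43 to 2.74, counted for Hoxd10, Hoxd11, Hoxd12 and Hoxd13, which lie side by side. Sall3 had 2 members among 3 distal Shh-/- peaks, and Hand2 and Smo had 1 among 1 each. Cdk6 had 1 among 2, Gli2 1 among 6 and Tbx2 1 among 10. Of the genes without a member, Ptch1 had 3 distal Shh-/- peaks within 100 kb and Grem1 had 1. Gli1 and Hhip had no distal Shh-/- peak there and so could have no member.

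Proximal limb genes had 19 members among 94 distal Shh-/- peaks (20.2%, 13.3 to 29.4%). Meis1, a homeodomain gene of the proximal bud, had 5, with folds from 2.45 to 3.05. One of these, chr11:18930900-18931049, in an intron 87.7 kb from the start and 13.4 kb from a WT peak, had a log2 fold of 2.72 in Shh-/- and 3.36 in Shh-/-;Gli3-/-. The other 4 lay within 0.9 kb of WT peaks. Shox2 had 3, and Hoxa9 had 4, which are the same members that counted for Hoxa11 and Hoxa13.

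Limb mesenchyme genes had 38 members among 199 distal Shh-/- peaks (19.1%, 14.2 to 25.1%), and 12 of the 16 genes had at least 1. Prrx1, an early homeodomain gene of limb mesenchyme, had 8, all within 2.95 kb of a WT peak, with folds up to 3.35. The strongest member near any of these genes lay 5.23 kb from Twist1 at chr12:33962900-33963349, with a log2 fold of 4.39 in Shh-/- and 3.13 in Shh-/-;Gli3-/-, and it touched a WT peak. Of the 38 members, 1 lay more than 5 kb from WT, near Fgf10, the mesenchymal growth factor that sustains limb outgrowth.

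Muscle precursor genes had 7 members among 23 distal Shh-/- peaks (30.4%, 15.6 to 50.9%), and 6 of them lay more than 5 kb from a WT peak. Lbx1, which marks migrating muscle precursors, had 3, with log2 folds of 2.93, 2.90 and 2.42 in Shh-/- and 2.68, 2.96 and 2.08 in Shh-/-;Gli3-/-. The first of these lay 24.1 kb and the next 39.1 kb from a WT peak, and the weakest 0.2 kb. A promoter peak was present at 1 muscle precursor gene in WT, at 1 in Shh-/- and at 4 in Shh-/-;Gli3-/-. In whole limb buds, more cells of a type and more acetylation per cell cannot be told apart.

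Cartilage and condensation genes had 12 members among 47 distal Shh-/- peaks (25.5%, 15.3 to 39.5%), of which 5 lay more than 5 kb from WT. Scx, a tendon progenitor gene, had 2 members, 3.83 and 4.73 kb from its start, and the stronger, chr15:76461350-76462149, had a log2 fold of 4.36 in Shh-/- and 2.98 in Shh-/-;Gli3-/-. Within 100 kb of Bmpr1b, a BMP receptor gene of forming cartilage, no distal WT peak was called, against 4 in Shh-/- and 15 in Shh-/-;Gli3-/-, and 2 of the 4 were members, intronic and 43.8 and 74.1 kb from the nearest start of the gene. Within 100 kb of Acan, the aggrecan gene, the 2 distal Shh-/- peaks were both members, and the stronger, chr7:78958500-78959249 (3.58 and 3.39), lay 44.2 kb from Isg20, its nearest gene.

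The lowest share was found at the BMP and feedback genes, with 11 members among 103 distal Shh-/- peaks (10.7%, 6.07 to 18.1%). Of these, 5 lay in introns of Bmp7, a BMP ligand gene. Ectoderm and apical ridge genes had 6 among 24 (25%, 12.0 to 44.9%), endothelium and blood genes 10 among 48 (20.8%, 11.7 to 34.3%), with 5 within 100 kb of Klf1 nearest to Junb or Hook2, and the general promoters used for comparison 10 among 45 (22.2%, 12.5 to 36.3%). Only the share at the BMP genes had an interval wholly below that of all distal peaks, and none of the 11 lists had one wholly above it. The BMP share was uneven by locus, with 0 members among 25 distal Shh-/- peaks at Smad6 and among 15 at Id1, and 5 among 11 at Bmp7. The interval counts peaks of 1 locus as if they were independent, and whether the list as a whole differs was not tested.

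Many members lay near another member. Of 3403, 68.9% (67.3 to 70.4%) had another member within 100 kb and 42.8% (41.1 to 44.5%) within 5 kb. Among the 3820 common peaks, the values were higher, 76.4% and 57.8%. The Shh-/- only peaks, which are more numerous, had values of 72.2% and 30.6%. The 1165 members more than 5 kb from WT peaks were counted only against each other and had values of 45.3% and 32.4%. A smaller set has fewer possible neighbours, so these values do not show that such members lie further from other members. Chained at 100 kb, the members fell into 1768 groups, of which 1059 held a single member and 111 held 5 or more (829 members). For 21 groups the number was 10 or more.

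The largest group held 23 members over 247 kb, chr6:30462700-30709949. It spans the carboxypeptidase genes Cpa1, Cpa4 and Cpa5 and also Cep41, and ends 13.6 kb before Mest, a mesoderm gene that is imprinted. The interval held 44 WT, 72 Shh-/- and 62 Shh-/-;Gli3-/- peaks, which covered 14.2, 26.7 and 44.9 kb. Every member there lay within 5 kb of a WT peak, with a median gap of 0.55 kb. The members thus lay between peaks of a region acetylated in WT as well.

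The next group, of 17 members over 148 kb, lay within Usp29 (chr7:6769850-6918199), a gene of the imprinted domain of Peg3. Here WT had 9 peaks covering 2.25 kb, Shh-/- 36 covering 8.70 kb and Shh-/-;Gli3-/- 22 covering 8.60 kb. Of the 17 members, 7 lay more than 5 kb from WT, and their folds in Shh-/- ran from 2.37 to 3.60. A group of equal number over 101 kb (chr1:161977500-162078249) lay over the end of Dnm3 and reached into 4930558K02Rik, with 31, 49 and 34 peaks covering 13.3, 24.4 and 32.0 kb. Groups of 14 lay at Mecom (26, 60 and 46 peaks), a zinc finger transcription factor gene, and over Rara, a retinoic acid receptor gene, Igfbp4 and Tns4 (24, 52 and 56 peaks). In each of these 5 intervals WT covered the least, and in all but Usp29 the double mutant covered the most. The intervals were chosen for their members, so this order is a description.

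Of the 3 groups of 13 that follow, the one at chr6:4805750-4954149, beside the imprinted gene Peg10 and over Ppp1r9a, had the highest share, with 13 members among 17 distal Shh-/- peaks. The others lay at Kat6b and Adk and over Dclk1. Zfp608 was the gene nearest to most members (22 of its 51 distal Shh-/- peaks). It was followed by 4930558K02Rik, Mecom and Usp29, with 17 each, and by Auts2 and Tcf7l2, with 13 each. Gm21954 and Zmiz1 had 12 each, and Gli3, Hdac9, Hnrnpa3, Mrpl23, Nars2, Spag17, Tcf4 and Zfp521 had 11 each. The members of Nars2 (11 of 16 distal Shh-/- peaks), Hnrnpa3 (11 of 18) and Auts2 (13 of 23) made up the highest shares among these genes. In all, 1730 genes were nearest to at least 1 member, 1017 of them to exactly 1.

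**Figure D4:**
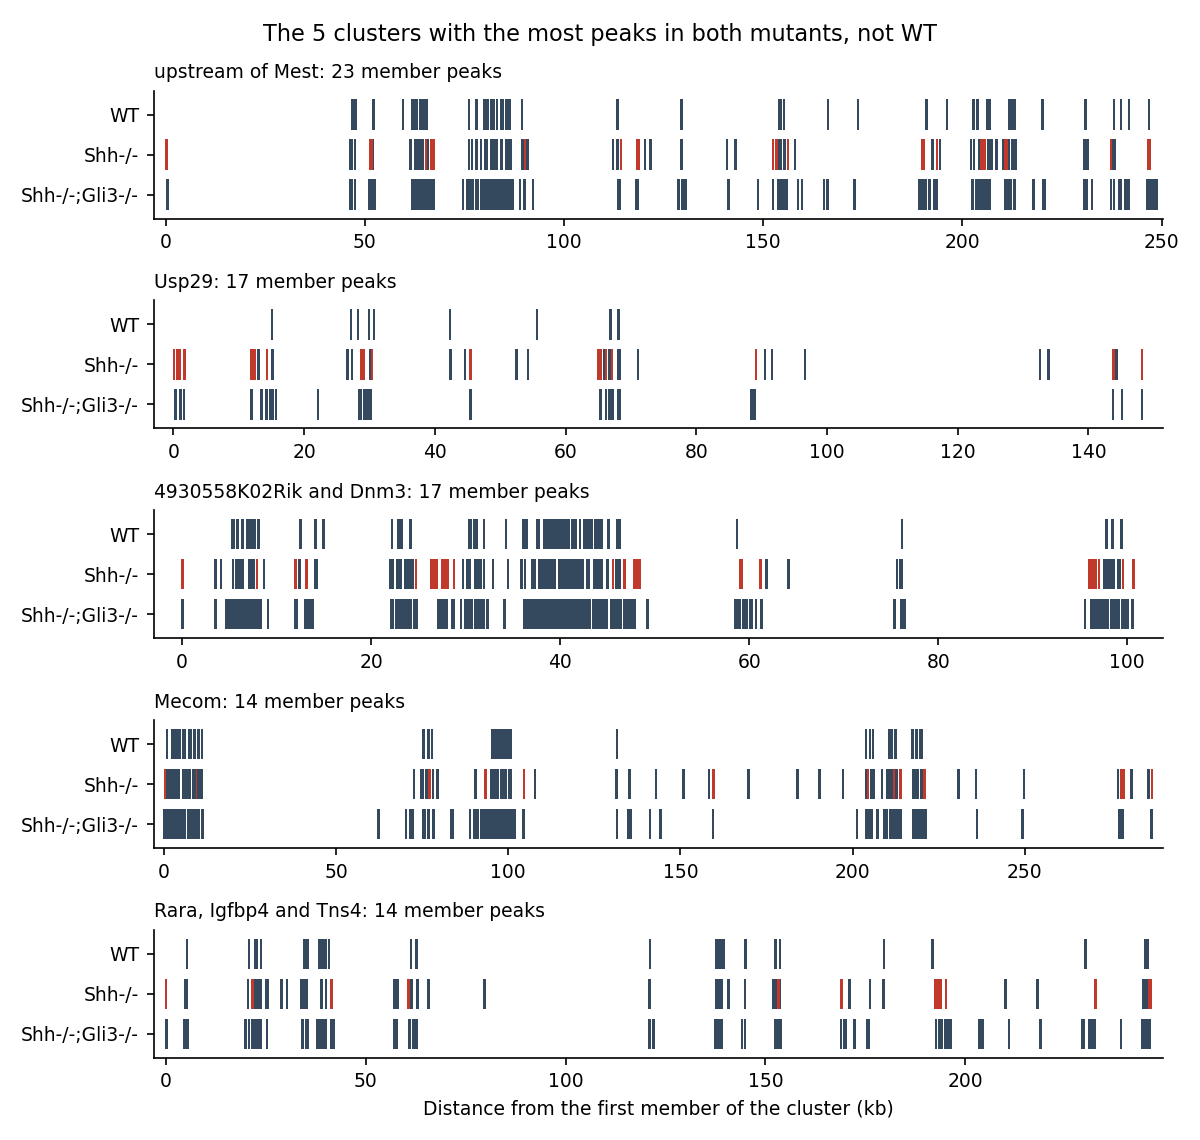
Peaks of the 3 lists in the 5 groups with the most members, by distance (kb) from the first member. Red marks in the Shh-/- row are members, dark marks all other peaks, and the narrowest marks are widened to 1/400 of the interval. The WT rows hold 44, 9, 31, 26 and 24 peaks from top to bottom, fewer than the Shh-/- rows in each.

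The X chromosome had the highest share of members. On it, 90 of 242 distal Shh-/- peaks were members (37.2%, 31.3 to 43.4%), against 16.0 to 24.9% on the 19 autosomes. The X chromosome held 605 WT, 697 Shh-/- and 1458 Shh-/-;Gli3-/- peaks. Peaks over Xist, which is transcribed from the inactive X, numbered 3 in WT, 0 in Shh-/- and 1 in Shh-/-;Gli3-/-, and peaks on the Y chromosome 8, 22 and 11. The part of this in the members on the X, among them those at Gpc3 and Cypt2, was not tested. Without the sex chromosomes, 20.4% of distal peaks were members.

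Members lay in regions of lower GC content than other distal peaks. Their median GC was 48.4% (48.0 to 48.7%), against 51.3% for common peaks, 50% for Shh-/- only peaks and 52.7% for the 545 peaks of WT and Shh-/-. Members more than 5 kb from WT (48.0%) and within 1 kb of WT (48.2%) had similar values. The observed over expected ratio of CpG in the 500 bp around the largest statistic was 0.23, against 0.30 for common and 0.21 for Shh-/- only peaks, and the share of repeat-masked bases was 11.6%, 10.8% and 12.0%. Of the members, 47.6% were intronic, 48.3% intergenic and 4.03% exonic, and 31.8% (30.3 to 33.4%) were over 100 kb from a protein-coding start, against 22.1% of common and 28.0% of Shh-/- only peaks.

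The homeodomain core TAATTA was found in the 500 bp window of 14.2% of members (13.0 to 15.4%), 11.2% of common peaks (10.3 to 12.3%), 10.9% of Shh-/- only peaks (10.2 to 11.5%) and 11.5% of all distal Shh-/- peaks, on either strand. This AT-only string was more frequent at low GC in every class. From 40 to 45% GC it was found in 19% of members (16.4 to 21.9%), 18.2% of common and 15.7% of Shh-/- only peaks, and from 50 to 55% GC in 6.87%, 7.68% and 5.74%. Within each of the 5 GC ranges the intervals of members and of common peaks overlapped, while members were above Shh-/- only peaks in all 5, with overlapping intervals.

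**Figure D5:**
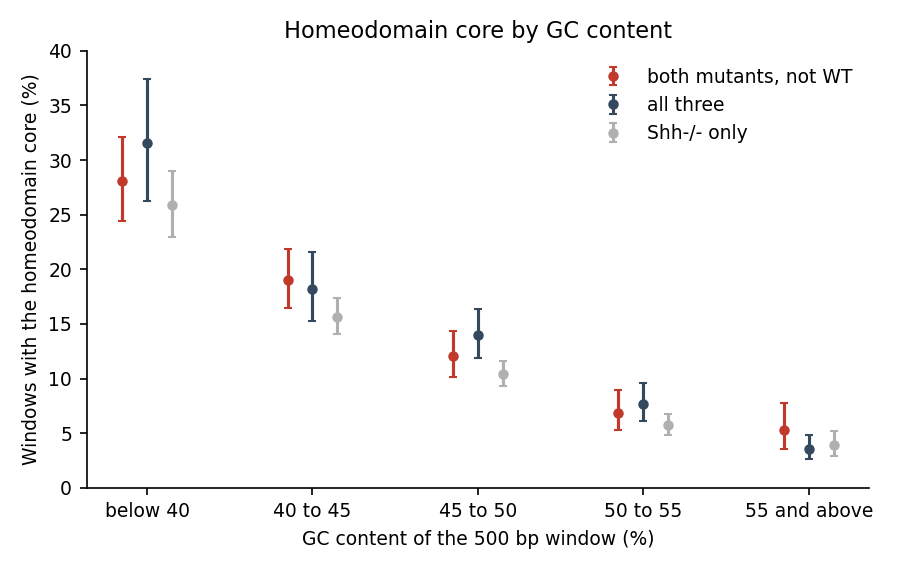
Share (%) of 500 bp windows that hold TAATTA, by GC content of the window, for members, common peaks and Shh-/- only peaks; points are shares and bars Wilson 95% intervals. The share of members decreases from 28.1% below 40% GC to 5.26% at 55% and above.

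The GLI string GACCACCCA was found in the windows of 6 members (0.176%, 0.0809 to 0.384%), against 0.316% of all distal Shh-/- peaks (52 of 16479), 0.341% of common and 0.333% of Shh-/- only peaks. The intervals overlap, and so few matches cannot separate the classes. Only 2 of the 6, those near Comtd1 and Dysf, lay wholly inside the called peak (0.0588%), the match near Mrps23 crossed its edge, and those near Ly86, Npvf and Mki67 lay outside it. The shorter string ACCACCC, which is contained in it, was found in 6.64% of members and 7.14% of all distal peaks. The 6 matches, chosen after their values were seen, are printed in the orientation of the string, with it in capitals, and named by the gene nearest to the peak. They lie at chr11:88241536-88241566, chr13:37492702-37492732, chr14:21865907-21865937, chr6:50986644-50986674, chr6:84105509-84105539 and chr7:136209632-136209662, in the order listed, and those at Comtd1 and Mki67 are on the plus strand.
Mrps23: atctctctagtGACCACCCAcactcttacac
Ly86: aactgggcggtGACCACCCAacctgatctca
Comtd1: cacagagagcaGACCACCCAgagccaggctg
Npvf: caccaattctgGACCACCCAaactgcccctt
Dysf: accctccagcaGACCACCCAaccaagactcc
Mki67: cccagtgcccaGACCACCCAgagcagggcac

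The peaks with these matches had log2 folds from 2.22 to 3.57 in Shh-/-, and none lay within 100 kb of a gene on the anterior, Hedgehog or proximal lists. The Ly86 member lay 333 kb from the nearest WT peak and the Comtd1 member 16.8 kb, while the member near Mrps23 touched one. Of the other strings, the E-box CAGATG was found in 36.4% of members and 35.0% of all distal peaks, the AP-1 string TGANTCA in 13.6% and 12.9%, the SOX string ACAAAG in 42.0% and 41.0% and the MEIS string TGACAG in 28.9% and 29.2%. The ETS string CCGGAAGT, which contains CpG, was found in 0.529% of members (0.335 to 0.835%) and 0.856% of all distal peaks (0.726 to 1.01%), with overlapping intervals, and in 1.44% of common peaks (1.11 to 1.87%).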

How the data were processed

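H3K27ac MicroChIP-seq libraries were prepared by the authors with 12 PCR cycles, and reads were aligned to mm10 with Bowtie2 2.2.5 per the labels' processing notes. Peaks were called with CisGenome against the input of each genotype. Each list is deposited with replicate 1 of its genotype, and pooling of replicates is not stated in the labels. Groups were taken from the sample titles, since the labels' genotype field calls all samples wild type. The reads and their depth were not used here.

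The deposited lists hold, in 50 bp steps, each peak's start, end and width, the largest score of the peak caller's statistic and its position, the largest log2 fold over input, the false discovery rate (a q-value) and the −log10 of the lowest Poisson p-value, capped by the authors at 100. Folds are relative to different inputs and are set side by side without a test. Peak positions are those of the lists, which leave open whether counting starts at 0 or 1. For sequences, starts were read as counted from 0, so printed stretches could be displaced by 1 base.

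Overlaps, distances and motifs were computed in Python 3.11.15 (numpy 2.4.6, pandas 2.3.3, scipy 1.17.1, pysam 0.24.0) with GENCODE M21 basic and the RefSeq GRCm38.p6 sequence. Of the members, 1 lies on an unplaced scaffold and has no sequence window. Where several Shh-/-;Gli3-/- peaks overlapped a member (101 cases), the one with the highest fold was its counterpart. Shares have Wilson 95% intervals and medians have order-statistic intervals. No p-values were computed, since each genotype has 1 list. The overlap rule was tested on simulated data with planted peaks.

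The named regions were the 10 with the highest lower-of-both percentile ranks, the 5 widest, those at the edges of the rule, the 5 largest groups and members within 100 kb of an anterior limb gene. Some genes and regions that this rule names are not reported here. Named genes were the 10 nearest to most members with ties, and up to 5 from each list. Further strong members far from WT, further Hedgehog and posterior limb genes, the groups after the fifth and the GLI matches were added after their values were seen. The members and gene lists were chosen with earlier results of these data known.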

Additional observations from a re-analysis of the deposited data

How the results depend on the processing

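No paired analysis was possible because only 1 list stands for a genotype, and for the same reason no replicate could be left out. Of 10 other settings, 7 moved the share of distal peaks that were members (20.6%) beyond its interval. It was 7.08% when no WT peak could lie within 5 kb, 12.9% for rows of the Shh-/-;Gli3-/- list, 15.4% when the double mutant peak itself had to be free of WT (a setting added after seeing the data), 17.1% with equal numbers of peaks, 22.3% with 50% coverage, 26.1% with a log2 fold of at least 3 and 27% with an FDR below 0.05. The last 2 filters also thin the WT list. The share of members with another within 100 kb (68.9%) took the values 45.4%, 60.9%, 59.8%, 58.8%, 70.7%, 56.9% and 66.6% under those settings in that order, and was 61.5% at a distance of 50 kb. The median width of 200 bp was 250 bp with an FDR below 0.05, with equal numbers and for rows of the Shh-/-;Gli3-/- list, and 450 bp with a log2 fold of at least 3. The median GC moved only with that fold, to 49.2%, and ranged from 48.0% to 48.7% otherwise. The GLI string was found in 0.0588% of members (2 peaks) when whole peaks replaced 500 bp windows. The share of members near anterior limb genes (0.617%) stayed within its interval under all 11 settings, from 0.443% to 0.783%. That interval, 0.404 to 0.942%, is wide because it rests on 21 members, so staying within it is weak evidence of stability. No setting gives the spread between embryos.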
